A study of Mesocricetus auratus with 21 samples.

Results

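Whole testes of wild-type golden hamsters were compared at 13 and 21 days postpartum (d.p.p.), with 2 paired-end RNA-seq libraries at each age, 4 of the 21 libraries of the series. The members were chosen by their labels alone, and every gene of the count table was considered. The animals were *Mov10l1*+/+ and untreated, and came from a colony that carries a CRISPR deletion of *Mov10l1* exon 20. The 4 libraries carry 4 animal codes that differ in their first part. This part is read here as a litter code, which the labels do not state, so age and litter cannot be told apart. For a single comparison further on, *Mov10l1*-/- testes of the same ages were used, 2 libraries each. These animals descend from 1 founder female that transmitted the deletion. Both *Mov10l1*-/- libraries of 13 d.p.p. share a litter code with a wild type of that age, and at 21 d.p.p. 1 of the 2 does.

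The first wave of spermatogenesis is nearly synchronous along the juvenile testis, so that age can be read as progress of the germ cells. Spermatogonia, the mitotic precursors, enter meiosis as spermatocytes, assemble the synaptonemal complex between paired chromosomes and reach pachytene, when recombination is completed and many genes of later sperm formation are first transcribed. The study placed the earlier age before meiosis and the later one at pachytene. The comparison therefore addresses which transcripts accompany the arrival of pachytene cells. The piRNA pathway works in these cells as well: PIWI proteins carry small RNAs that silence transposable elements, and the helicase MOV10L1 is needed to make them.

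Libraries held 9278866 and 3550217 estimated counts at the earlier age and 6549436 and 20656904 at the later one. The 10 most counted genes took between 28.7 and 53.0% of a library, with the highest share in replicate 2 of 21 d.p.p. The ranks of expression correlated at 0.923 between the replicates of 13 d.p.p., and at 0.971 between the later pair (Spearman, across 13178 genes, which are not independent). The median absolute difference between replicates was 0.54 on the log2 scale for the earlier pair, 0.27 for the later one, and the shallowest library was thus also part of the less even pair. Symbols were in hand for 1044 of the 22285 genes. Nearly all of those are genes that the study lists as differing between genotypes in oocytes or in testes of 0 and 9 d.p.p., so the named genes are not a random draw of the transcriptome. Levels are given as CPM, the count of a gene over the TMM-scaled total of its library in units of 1000000 counts, in the order replicate 1, replicate 2, and are compared between ages only, since gene lengths were not in hand.

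Of 13178 genes tested, 466 were higher at 21 d.p.p. (3.54% of those tested) and 88 were lower (0.668%), by edgeR's quasi-likelihood test at a Benjamini-Hochberg adjusted p below 0.01. The genes called higher changed most: their median log2 fold change was 4.14, 456 of them rose over 4-fold and 245 over 16-fold. Those called lower had a median of -2.37, with 75 beyond 4-fold and 2 beyond 16-fold. Many genes called higher started from very little, and 177 of the 466 averaged under 1 CPM at 13 d.p.p. All 554 called genes had both libraries of one age beyond both of the other, a separation that 28.6% of all tested genes showed upward and 27.8% downward. The median change of all genes was -0.03. At an unadjusted p below 0.05, the threshold that is also given for the gene lists below, 13.8% of all tested genes were higher and 12.3% lower. The counts rest on single libraries to a large extent: without replicate 1 of 13 d.p.p. 99 genes were called higher and 28 lower, without replicate 2 of that age 616 and 508, without replicate 1 of 21 d.p.p. 340 and 19, and without its replicate 2 625 and 73. Each such fit leaves a lone library that is assumed to vary like the pair of the other age. Of the 50 genes called and named below, 32 lost their call without replicate 1 of 13 d.p.p., with adjusted p values of at most 0.0311, 3 without its replicate 2, 14 without replicate 1 of 21 d.p.p. and 5 without its replicate 2.

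**Figure D1:**
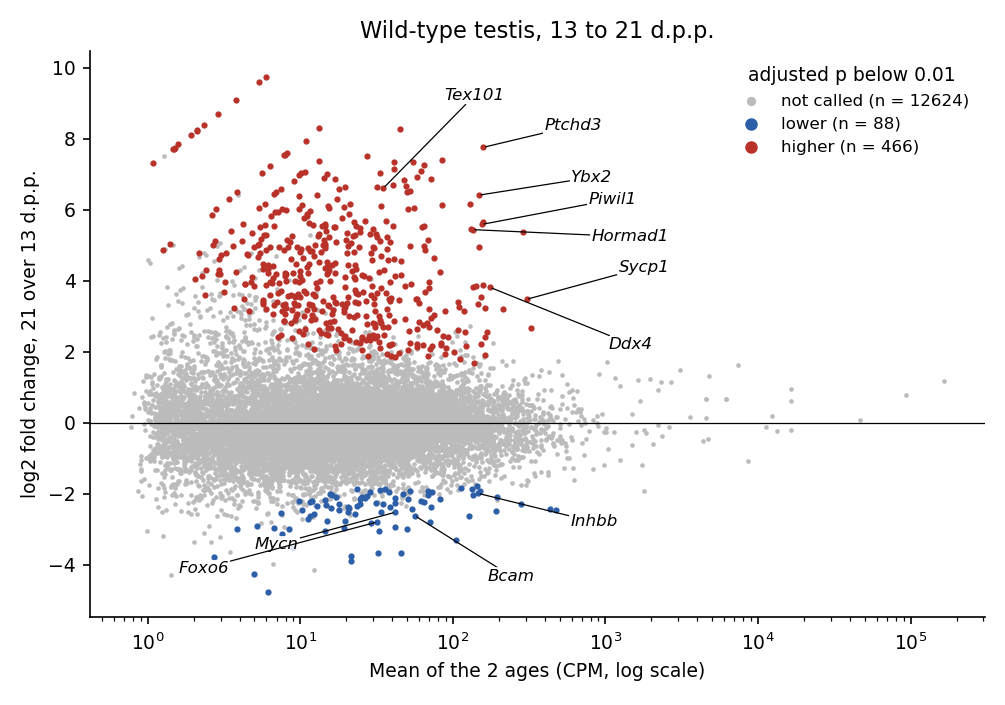
Each point is 1 of 13178 genes tested in wild-type testis. The horizontal axis is the mean level of the 2 ages in CPM on a log scale and the vertical axis the log2 fold change of 21 over 13 d.p.p. Red points mark 466 genes that were higher and blue points 88 that were lower at an adjusted p below 0.01. Red points reach far beyond a log2 fold change of 4, whereas nearly all blue points lie above -4, and none of the most abundant genes on the right was called.

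Of the 975 tested genes with a symbol, 58 were higher at 21 d.p.p. (5.95%) and 8 were lower (0.821%). The gene of largest rise among these was *Ptchd3*, a patched-domain gene (MesAur1.0 scaffold KB708147.1, from 43539 to 52390, minus strand). It stood at 1.98 and 0.511 CPM at the earlier age and reached 324 and 308 CPM at 21 d.p.p., a log2 fold change of 7.76 ± 0.55 (SE, edgeR adjusted p = 0.000415). *Tex101*, which encodes a germ cell surface protein needed for sperm to reach the egg, went from 0.791 and 0.511 CPM to 73.4 and 65.6 CPM, a log2 change of 6.61 ± 0.46. *Ybx2*, whose product binds and stores mRNA in meiotic and postmeiotic germ cells, measured 3.86 and 2.81 CPM and then 424 and 161 CPM, a log2 change of 6.41 ± 0.59. At both ages the replicates of these 3 genes lay close together relative to the gap between the ages.

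*Tmem45b*, a transmembrane protein gene, rose from 0.0989 and 0.255 to 13.3 and 7.90 CPM. Its 2 counts at 13 d.p.p. against 217 at 21 d.p.p. give a ratio of 68.6 with a 95% exact counting interval of 18.8 to 570. *Lypd9*, of the Ly6 family of surface proteins, had 3 counts and then 215, a ratio of 45.3 (interval 15.3 to 221). These intervals cover counting error only. *Gm364*, described as similar to a transmembrane 9 superfamily gene, rose from 3.46 and 9.45 to 264 and 354 CPM, and *Fam217a* from 0.593 and 0.255 to 36.2 and 11.6 CPM. *Ptpdc1*, a phosphatase gene, increased from 8.80 and 9.70 to 401 and 174 CPM. *Rpgrip1*, whose product sits at the base of cilia, had the least even pair at 21 d.p.p., with 72.6 and 15.1 CPM after 1.98 and 0.766 CPM. Its log2 change of 4.82 ± 0.80 was called (adjusted p = 0.00541), but not without replicate 1 of 13 d.p.p. (adjusted p = 0.0286) nor without replicate 2 (0.0165).

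The 2 largest changes among genes without a symbol in hand were those of ENSMAUG00000007677 and ENSMAUG00000019378. Neither had a count at 13 d.p.p. At 21 d.p.p. the former had 110 and 138 counts and the latter 103 and 118. Against a floor of 3 counts over both libraries of 13 d.p.p., they were at least 52.2-fold and 46.5-fold higher.

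Many genes of the piRNA pathway rose by 21 d.p.p. Of 27 genes listed, 18 had an identifier, 17 were tested, 8 were called higher and 0 lower. Called higher were 3.54% of all tested genes and 5.95% of those with a symbol. The median log2 fold change of the 17 was 2.41, against -0.03 for all genes. Both libraries of 21 d.p.p. lay above both of 13 d.p.p. for 16 of the 17 and for 28.6% of all genes. *Piwil1*, the PIWI protein that in mice carries the piRNAs of pachytene cells (scaffold KB708228.1, from 630774 to 647300, minus strand), moved most, from 5.04 and 7.91 CPM to 425 and 183 CPM (log2 change 5.59 ± 0.54, edgeR adjusted p = 0.000604). *Piwil2*, the PIWI protein that acts both before and at pachytene, rose less, from 21.9 and 39.1 to 213 and 158 CPM (2.62 ± 0.39, adjusted p = 0.00360). *Piwil4*, which in fetal germ cells of mice guides DNA methylation in the nucleus, stood at 5.54 and 6.38 CPM and then at 5.75 and 4.81 CPM, so the ages overlapped. *Piwil3*, the PIWI gene that mice lack, had 2 counts at the earlier age and 14 at the later one in both libraries together, too few to be tested, with a ratio of 4.42 (95% exact counting interval 1.02 to 40.1).

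Among the partners of the PIWI proteins, *Ddx4*, the germ cell RNA helicase Vasa, rose from 14.5 and 32.7 to 400 and 254 CPM (log2 change 3.82 ± 0.49, adjusted p = 0.00180). *Tdrd1*, a Tudor-domain scaffold of PIWI complexes, rose from 31.7 and 52.1 to 501 and 272 CPM (3.21 ± 0.45). The further called members, named after their values were seen, were the Tudor-domain genes *Rnf17* (47.8 and 49.8, then 319 and 257 CPM), *Tdrd5* (28.8 and 30.4, then 183 and 132 CPM) and *Tdrd7* (20.2 and 26.0, then 135 and 75.0 CPM) and the piRNA factor *Mael* (45.1 and 23.2, then 256 and 154 CPM). With at least 10 counts in every library the call of *Tdrd7* was lost (edgeR adjusted p = 0.0108). It was also lost without replicate 1 of 13 d.p.p. or of 21 d.p.p., with log2 changes of 2.01 and 1.71. *Mov10l1* itself lay at 51.7 and 99.8 CPM and then at 147 and 137 CPM, a log2 change of 0.91 ± 0.37 that was not called (adjusted p = 0.160). *Tex15*, which acts with the nuclear PIWI protein, was not called either, with 203 and 96.5 CPM before 279 and 216 CPM. The range within the pathway was wide, from *Piwil4* at -0.17 to *Piwil1* at 5.59. Without replicate 1 of 13 d.p.p. 2 members of the list were called in place of 8, and without replicate 2 of that age 12.

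Genes of meiotic chromosomes gave similar counts. Of 42 listed, 18 had an identifier and were tested, and 9 were called higher and 0 lower, against 3.54% and 0.668% of all genes. The median log2 change was 2.25. *Hormad1*, which marks chromosome axes that have not yet synapsed, rose from 4.84 and 7.66 to 282 and 247 CPM (5.44 ± 0.42, adjusted p = 0.000415). *Sycp1*, the transverse filament of the synaptonemal complex, was present before, at 63.2 and 36.5 CPM, and reached 639 and 478 CPM (3.48 ± 0.44, adjusted p = 0.00168). *Sycp3*, of the lateral element, rose from 20.6 and 32.2 to 302 and 228 CPM (3.34 ± 0.39, adjusted p = 0.00115). *Meioc*, which is needed to keep germ cells in meiotic prophase, rose from 21.2 and 18.4 to 347 and 242 CPM (3.89 ± 0.38). All of these genes had a measurable level in both libraries of 13 d.p.p., the age placed before meiosis. They have a symbol in hand because the study lists them as differing between genotypes at 9 d.p.p. That choice favours genes detected early.

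The other called members, again named after their values were seen, had log2 changes between 2.06 and 3.38. They were *Hsf2bp* and *Spata22*, which act in meiotic recombination, *Majin*, which tethers telomeres to the nuclear envelope, *Tex12*, of the central element of the synaptonemal complex, and *Topaz1*, a germ cell gene needed for male meiosis. The call of *Topaz1* was narrow and was lost with RLE size factors (edgeR adjusted p = 0.0101) and with at least 10 counts in every library (0.0117). That of *Tex12* was lost after thinning to the smallest library (0.0127). Both calls were also lost without replicate 1 of either age, with log2 changes from 1.76 to 2.32. The *Tex12* call was lost without replicate 2 of 21 d.p.p. as well, with a log2 change of 2.07. *Smc1b*, the meiotic cohesin subunit, had 86.1 and 132 CPM and then 425 and 254 CPM and was not called (1.64 ± 0.40, adjusted p = 0.0299). The smallest change was that of *Rec114* at 0.07. Members without a call also lay apart between the ages in most cases. Both libraries of 21 d.p.p. lay above both of 13 d.p.p. for 17 of the 18 and for 28.6% of all genes. Without replicate 1 of 13 d.p.p. 6 members were called in place of 9.

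Genes of spermatocytes and spermatids held the largest changes among the lists, those of *Tex101* and *Ybx2*. Of 37 listed, 25 had an identifier, 24 were tested, 13 were called higher and 0 lower, against 3.54% and 0.668% of all genes. The median log2 change was 2.53. Besides *Tex101* and *Ybx2*, *Brdt*, a bromodomain protein of the meiotic and postmeiotic genome, rose from 1.78 and 1.53 to 112 and 46.0 CPM (5.53 ± 0.56, adjusted p = 0.000721). *H2bc1*, the testis variant of histone H2B, rose from 12.5 and 23.7 to 315 and 190 CPM (3.82 ± 0.46). *Rbm44*, an RNA-binding protein gene of germ cells, rose from 46.8 and 55.7 to 328 and 223 CPM. *Hspa4l*, a chaperone gene, had 41.6 and 86.3 CPM and then 362 and 245 CPM and just missed the threshold (2.25 ± 0.43, adjusted p = 0.0112).

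Further called members, named after their values were seen, were the RNA-binding genes *Adad1* (7.71 and 5.36, then 108 and 92.1 CPM), *Adad2* (3.66 and 10.2, then 79.8 and 62.0 CPM) and *Boll* (11.2 and 7.66, then 123 and 92.3 CPM). *Ddx25*, an RNA helicase gene, measured 10.1 and 19.7 and then 132 and 78.2 CPM, and the transcription factor *Tcfl5* 8.01 and 8.94 and then 81.0 and 38.1 CPM. *Rpl39l*, a testis paralog of a ribosomal protein gene, rose from 9.00 and 5.11 to 67.3 and 66.7 CPM. *Slc26a8*, an anion transporter of sperm, rose from 3.56 and 3.06 to 52.4 and 16.6 CPM. *Pbk*, a kinase gene of dividing germ cells, rose from 43.2 and 37.3 to 184 and 140 CPM. Not every member moved, and *Cfap58*, a flagellar gene, gave the lowest value of the list at -0.71. *Odf1*, a protein of the sperm tail and thus a marker of late spermatids, was nearly absent at both ages, with 2 and 3 counts, then 0 and 5. In wild-type adults it stood at 1748 and 2144 CPM (scaled over all 12 paired-end libraries). Without replicate 1 of 13 d.p.p. 6 members of the list were called in place of 13.

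**Figure D2:**
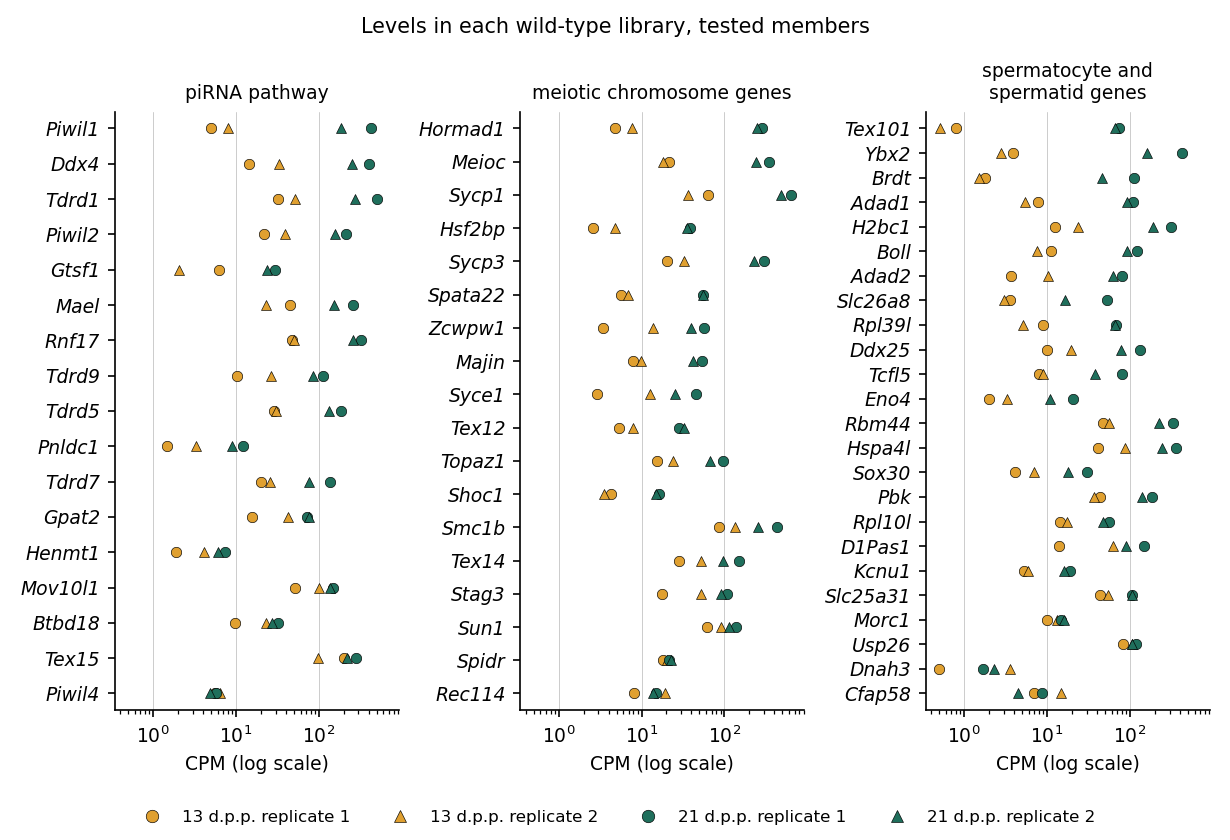
Level of each tested member of 3 germ cell lists in each wild-type library, in CPM on a log axis. Ochre marks 13 d.p.p. and green 21 d.p.p., circles replicate 1 and triangles replicate 2, and genes are ordered by log2 fold change. In the upper rows, from *Piwil1*, *Hormad1* and *Tex101* down, the green marks lie far to the right of the ochre ones, and in the lowest rows, such as *Piwil4*, *Rec114* and *Cfap58*, they overlap.

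At 13 d.p.p. these germ cell genes were not even between the replicates. Replicate 2 exceeded replicate 1 for 14 of 17 piRNA pathway genes, 15 of 18 meiotic genes and 16 of 24 spermatocyte and spermatid genes, and for 6564 of all 13178. At 21 d.p.p. it did so for 1 of 17, 2 of 18 and 2 of 24. Summed levels of the 3 lists nevertheless stayed apart between ages. Those of the piRNA pathway were 521 and 566 CPM and then 3130 and 2072 CPM, those of the meiotic genes 377 and 546 and then 2810 and 2098 CPM, and those of the spermatocyte and spermatid genes 386 and 556 and then 2964 and 1929 CPM. In whole testis, a larger share of a cell type and more RNA per cell cannot be told apart.

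Spermatogonial genes held few calls. Of 27 listed, 18 had an identifier and were tested, 1 was called higher and 0 lower, with a median log2 change of -0.28 that turned to 0.20 without replicate 2 of 13 d.p.p. At an unadjusted p below 0.05, 3 were higher and 3 lower (16.7% each, near the 13.8% and 12.3% of all genes), and DESeq2 called 3 higher and 1 lower. The called gene was *Id4*, an inhibitor of transcription factors that is listed here as a marker of undifferentiated spermatogonia. It rose from 15.9 and 14.6 to 70.8 and 45.7 CPM (1.93 ± 0.36, edgeR adjusted p = 0.00975). It is a narrow call that was lost without replicate 1 of 21 d.p.p. (adjusted p = 0.147), without either replicate of 13 d.p.p. (0.0183 and 0.0106) and with RLE size factors (0.0115). *Dazl*, an RNA-binding protein of germ cells at many stages, had 63.6 and 71.2 CPM and then 214 and 163 CPM and was not called (1.49 ± 0.33, adjusted p = 0.0192).

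Levels of 3 stage markers of spermatogonia overlapped between the ages. *Zbtb16*, a factor of undifferentiated spermatogonia, had 6.43 and 17.9 CPM and then 8.62 and 6.11 CPM. *Kit*, the receptor of differentiating spermatogonia, had 33.6 and 61.8 CPM and then 49.4 and 49.2 CPM, so both values of 21 d.p.p. fell between those of 13 d.p.p. *Sohlh1*, a transcription factor of differentiating spermatogonia, differed more between the replicates of 13 d.p.p. (18.2 and 67.4 CPM) than between the ages (24.2 and 39.6 CPM at 21 d.p.p.). The lowest change of the list was that of *Etv5*, at -1.91. In CPM each value is a share of its library and not an amount per testis.

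Sertoli cells nurse the germ cells inside the tubules. Of 17 of their markers 6 were tested, with a median log2 change of -0.75. All 6 changes were negative, the lowest at -2.66, and 3 markers were lower without overlap, against 27.8% of all genes. At an unadjusted p below 0.05, 2 were lower (33.3%, against 12.3% of all genes). Of the 6, *Inhbb* was called lower by edgeR. It encodes the beta B subunit of inhibin and activin, which Sertoli cells secrete, and was measured at 232 and 237 CPM and then at 50.4 and 67.7 CPM (-1.99 ± 0.33, adjusted p = 0.00577). *Inha*, its alpha partner, had 433 and 188 CPM and then 150 and 199 CPM, with overlapping ages. *Clu*, a secreted chaperone that is abundant in Sertoli cells, had 2066 and 1729 CPM and then 1748 and 1577 CPM. *Kitl*, the ligand of the KIT receptor, had 216 and 60.8 CPM and then 63.9 and 110 CPM. DESeq2 called 2 members lower. The edgeR call of *Inhbb* was lost without replicate 1 of 13 d.p.p. (adjusted p = 0.0108) or without either replicate of 21 d.p.p. (0.147 and 0.0196).

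Peritubular myoid cells are the contractile cells around the seminiferous tubules. Of 10 of their markers 7 were tested, with a median log2 change of -1.40. All 7 had both libraries of 21 d.p.p. below both of 13 d.p.p., as did 27.8% of all genes. edgeR called none of the 7 (6 lower at an unadjusted p below 0.05, or 85.7% against 12.3% of all genes), and DESeq2 called 5 lower. *Myh11*, smooth muscle myosin, had 348 and 634 CPM and then 193 and 180 CPM (-1.40 ± 0.41, adjusted p = 0.0560). *Svil*, an actin-bound scaffold, had 197 and 205 CPM and then 63.6 and 66.9 CPM (-1.62 ± 0.31, adjusted p = 0.0110). Stromal matrix genes were similar in sign: 17 of 18 tested members had a negative change, and the median was -0.90. Without overlap 11 were lower, against 27.8% of all genes. Of these members edgeR called 0 (8 lower at an unadjusted p below 0.05, or 44.4%) and DESeq2 4 lower. *Col18a1*, a basement membrane collagen, had 729 and 1005 CPM and then 339 and 377 CPM. *Col1a1*, the main fibrillar collagen, had 295 and 917 CPM and then 100 and 365 CPM, with overlapping ages (adjusted p = 0.234).

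Leydig, endothelial and blood cell markers gave no call by edgeR or DESeq2 among 3, 4 and 7 members tested by edgeR, and 1, 0 and 0 members were higher and 1, 1 and 0 lower at an unadjusted p below 0.05, in lists too short to set against the shares of all genes. *CYP11A1*, the enzyme that starts steroid synthesis in Leydig cells, had 34.8 and 22.5 CPM and then 64.9 and 64.4 CPM (1.17 ± 0.34, adjusted p = 0.0589). *Ptgds*, a prostaglandin synthase, had 229 and 143 CPM and then 183 and 194 CPM. *Mcam*, an endothelial adhesion molecule, had 61.9 and 77.9 CPM and then 30.6 and 32.0 CPM, and *Flt1*, a receptor for vascular growth factor, 16.1 and 13.3 and then 8.88 and 8.52 CPM. *Csf1r*, the growth factor receptor of macrophages, lay between 6.79 and 8.11 CPM in all 4 libraries, and *Nckap1l*, of blood cells, between 7.61 and 13.3 CPM. The summed level of the blood list ranged from 33.1 to 44.6 CPM over both ages.

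**Figure D3:**
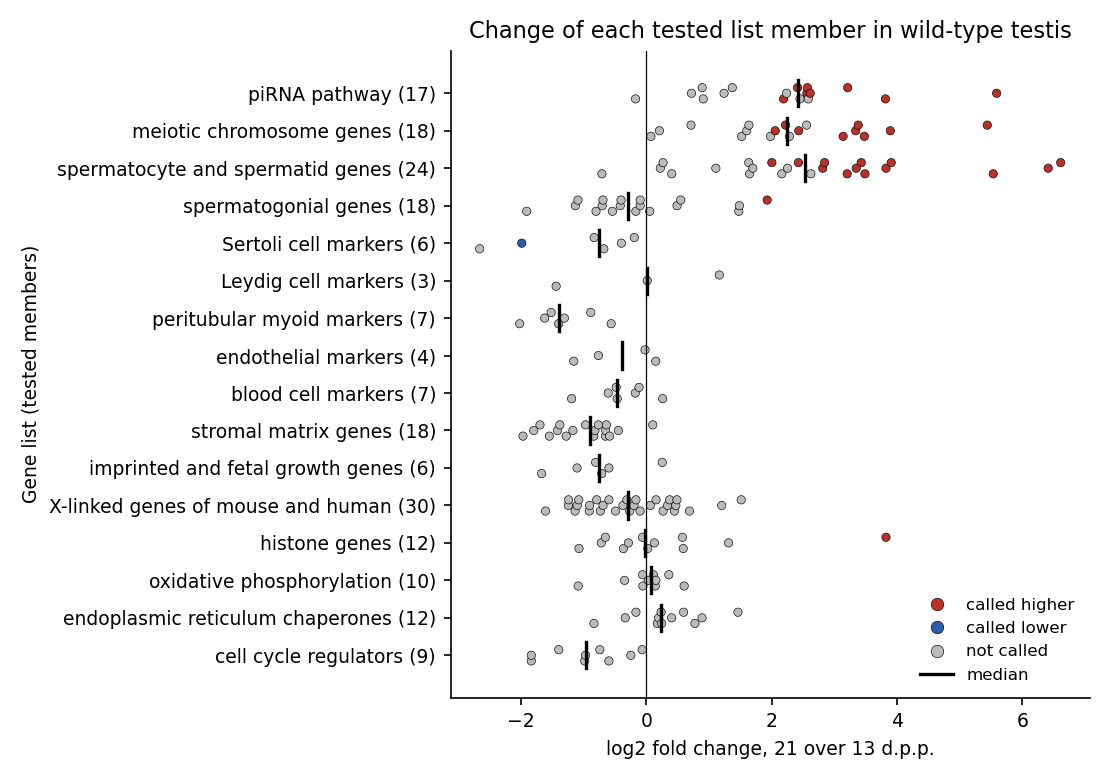
Log2 fold change of 21 over 13 d.p.p. of each tested member of the 16 gene lists, 1 point per gene, with the number of tested members in brackets and a black bar at the median. Red points were called higher and blue points lower. The upper 3 lists, of germ cells, have medians between 2.25 and 2.53 and hold most of the red points. The peritubular myoid list lies to the left of 0 and the stromal list mostly does, both with no call, and *Inhbb* in the Sertoli list is the single blue point.

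The remaining lists held 1 call, that of *H2bc1* among 12 histone genes, all of which were tested and whose median change was -0.02 (0.38 without replicate 1 of 13 d.p.p. and -0.31 without replicate 2). *H2aw* had 194 and 230 CPM and then 392 and 661 CPM (1.31 ± 0.40, adjusted p = 0.0676). *H1f1*, a linker histone, had 412 and 995 CPM and then 697 and 653 CPM, *H1f3* 292 and 591 and then 204 and 216 CPM, and *H2bc18* between 228 and 346 CPM in the 4 libraries. The 9 regulators of the cell cycle were all lower on average, with a median of -0.97. Without overlap 7 were lower, against 27.8% of all genes. At an unadjusted p below 0.05, 5 were lower (55.6%, against 12.3% of all genes), with no call by edgeR or DESeq2. *Cdk4*, a kinase of the G1 phase, had 87.7 and 78.1 CPM and then 33.1 and 51.6 CPM, and *Cdk6* 68.5 and 62.0 and then 35.4 and 42.7 CPM. Endoplasmic reticulum chaperones had a median of 0.24 over 12 members and no call by either tool, with 2 higher and 1 lower at an unadjusted p below 0.05 (16.7% and 8.33%, near the shares of all genes). Of these, *Hsp90b1* lay between 1181 and 1810 CPM and *Calr* between 603 and 1196 CPM. Genes of oxidative phosphorylation had a median of 0.07 over 10 members, with none past an unadjusted p of 0.05 and none called by DESeq2. This median was 0.72 without replicate 1 of 13 d.p.p. and -0.50 without replicate 2, where 1 member was called lower. Here *ND6*, encoded in the mitochondrion, lay between 77.1 and 160 CPM and *Atp5j2*, of the ATP synthase, between 61.3 and 105 CPM. Replicate 2 of 13 d.p.p. was below replicate 1 for all 10 of these, with summed levels of 690 and 388 CPM before 499 and 592 CPM.

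Genes that are X-linked in mouse and human are of interest because the X chromosome is silenced in pachytene spermatocytes. Their location in the hamster was not checked. Of 33 listed, 30 were tested, and edgeR called none. At an unadjusted p below 0.05, 2 were higher (6.67%, against 13.8% of all genes) and 5 lower (16.7%, against 12.3%), and DESeq2 called 1 lower. Their median log2 change was -0.29, with a range from -1.61 to 1.51. Without overlap, 14 were lower and 9 higher at 21 d.p.p., against 27.8% and 28.6% of all genes. *Hmgb3*, a chromatin protein gene, had 334 and 252 CPM and then 170 and 182 CPM, and *Cited1*, a transcriptional coactivator gene, 159 and 133 and then 106 and 130 CPM. The 6 tested imprinted and fetal growth genes held no call by edgeR (1 lower at an unadjusted p below 0.05), DESeq2 called 1 lower, and the median was -0.76. *Ndn*, a maternally imprinted gene, had 27.6 and 22.7 CPM and then 8.62 and 7.28 CPM (-1.67 ± 0.36, adjusted p = 0.0182), and *Mest* had 58 and 27.3 CPM and then 51.5 and 51.2 CPM.

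**Figure D4:**
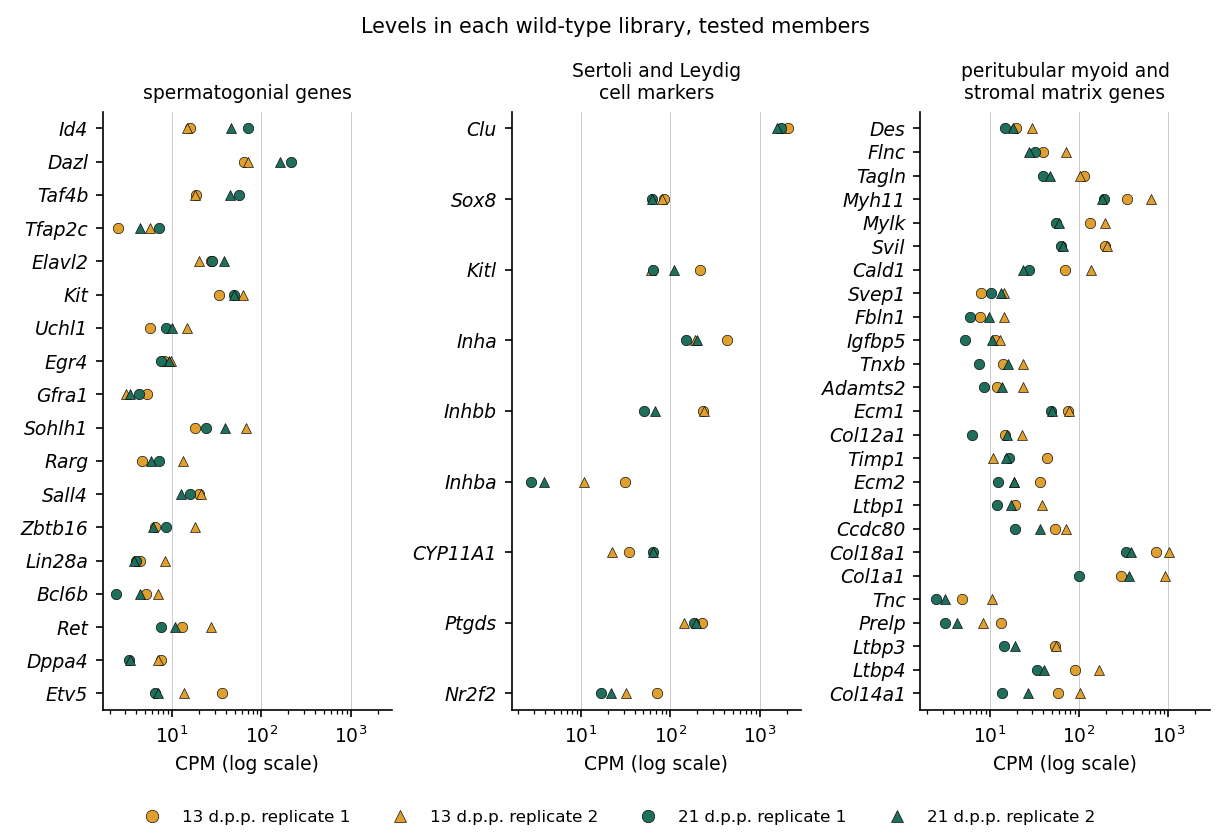
Level of each tested member of the spermatogonial, Sertoli and Leydig, and peritubular myoid and stromal matrix lists in each wild-type library, in CPM on a log axis. Ochre marks 13 d.p.p. and green 21 d.p.p., circles replicate 1 and triangles replicate 2. In the right panel most green marks lie to the left of the ochre ones. In the left panel they overlap for genes such as *Kit*, *Zbtb16* and *Sohlh1*, and *Id4* at the top lies apart.

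Among genes with a symbol, 8 were called lower, and these are all that the rule for named genes could take. *Foxo6*, a forkhead transcription factor, measured 51.5 and 59.7 CPM and then 6.79 and 9.14 CPM (-2.79 ± 0.36, edgeR adjusted p = 0.00180). *Bcam*, a laminin receptor, measured 102 and 91.9 CPM and then 9.28 and 22.1 CPM (-2.61 ± 0.44), and *Col9a2*, a collagen type IX chain, 34.9 and 43.9 and then 4.83 and 8.31 CPM (-2.56 ± 0.40). *Mycn*, a proto-oncogene of the MYC family, had 77.1 and 65.6 CPM and then 10.8 and 14.0 CPM (-2.52 ± 0.34, adjusted p = 0.00253). In each of these 4 genes the higher library of 21 d.p.p. was below the lower one of 13 d.p.p. by a wide margin.

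The other called genes with a symbol changed by about the size of *Inhbb*. *Fhl2*, a LIM-domain cofactor, went from 69.4 and 96.0 to 18.4 and 25.0 CPM, and *Map3k21*, a kinase gene, from 216 and 202 to 55.3 and 60.9 CPM. *Aldh1a3*, an enzyme that makes retinoic acid, went from 216 and 228 to 57.4 and 73.4 CPM (-1.76 ± 0.33, adjusted p = 0.00910). The calls of *Bcam*, *Col9a2* and *Mycn* were lost without replicate 1 of 21 d.p.p. (adjusted p = 0.0448, 0.0380 and 0.0245). Those of *Fhl2*, *Map3k21* and *Aldh1a3* were lost without either replicate of 21 d.p.p., with adjusted p values from 0.0205 to 0.239. Without replicate 1 of 13 d.p.p. the calls of *Bcam*, *Col9a2*, *Map3k21* and *Aldh1a3* were lost as well, with log2 changes of -2.52, -2.71, -1.80 and -1.80. With at least 10 counts in every library *Fhl2*, *Map3k21* and *Aldh1a3* were not called (edgeR adjusted p = 0.0143, 0.0107 and 0.0143). *Aldh1a3* was not called with RLE size factors (0.0101). Among genes without a symbol, ENSMAUG00000007611 fell most, from 14.9 and 8.94 to 0.261 and 0.549 CPM, and ENSMAUG00000022147 next, from 13.2 and 5.87 to 0.131 and 0.756 CPM. Their calls were lost too without replicate 1 of 13 d.p.p., with log2 changes of -4.30 and -3.48.

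The wild-type change was then set against that of *Mov10l1*-/- testes, by a test of the difference between the 2 changes over 8 libraries. By staining of sections, the study found mutant tubules almost without undifferentiated spermatogonia at the earlier age. It saw no meiotic cells in mutant testes at the later age. The genotypes thus differ in cell content. Whether the differences below lie in cell numbers or in expression per cell was not tested. The *Mov10l1* gene checked the labels first: it had 48.1, 91.9, 139 and 130 CPM in the wild types of 13 and 21 d.p.p. and 1.39, 0.168, 0.115 and 0.128 CPM in *Mov10l1*-/- (all CPM of this comparison were scaled over the 8 libraries). The wild-type change exceeded that of *Mov10l1*-/- for 309 of 14941 genes (2.07%) and lay below it for 5 (0.0335%). With a symbol these were 36 (3.54% of 1016) and 3 (0.295%). Of the 466 genes called higher in the wild type, 203 were among the 309, and in *Mov10l1*-/- itself 25 were called higher and 3 lower from 13 to 21 d.p.p. Of all 14941 genes, 214 were called higher and 237 lower in *Mov10l1*-/-. The median log2 change of the 466 was 4.18 in the wild type and -0.58 in *Mov10l1*-/-. Of the 88 genes called lower, 2 were among the 5, with medians of -2.34 in the wild type and -1.22 in *Mov10l1*-/-. The genes called higher were chosen on the wild-type values that the difference also uses, so these counts describe them and are no independent test.

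*Piwil1* had 5.48 and 0.225 CPM and then 0.344 and 0.205 CPM in *Mov10l1*-/-, and its change differed between genotypes by 8.95 ± 1.54 on the log2 scale (adjusted p = 0.00886). *Tex101* had 1.32 and 0.0562 CPM and then 0 and 0.128 CPM (difference 9.21 ± 1.52, adjusted p = 0.0073), and *Ptchd3* 5.99 and 0.140 and then 0.172 and 0.205 CPM (11.57 ± 1.74, adjusted p = 0.00505). In counts these were 21 and 2 and then 0 and 5 for *Tex101*, and 95 and 5 and then 3 and 8 for *Ptchd3*. Without *Mov10l1*-/- replicate 1 of 13 d.p.p. the difference was 6.07 for *Tex101* and 7.31 for *Ptchd3*, and neither was called. Both calls were lost whichever library was left out, except for *Mov10l1*-/- replicate 2 of 13 d.p.p. *Lypd9* had 4 and 3 counts and then 0 and 0, so its fitted difference of 10.06 depends on the small count that edgeR adds. *Ddx4* had 4.79 and 0.955 CPM and then 0.115 and 0.334 CPM (7.22 ± 1.05, adjusted p = 0.00444). *Sycp3* had 4.66 and 1.29 CPM and then 4.13 and 4.03 CPM, and its difference of 2.85 ± 0.68 was not called (adjusted p = 0.0329). *Pbk*, *Tdrd7* and *Id4* were not low there at 13 d.p.p., with 40.3 and 30.2, 16.5 and 19.8, and 9.33 and 14.2 CPM. The wild types of that age had 40.2 and 34.3, 18.8 and 24.0, and 14.8 and 13.4 CPM. Which cells held these transcripts was not tested. Among the lists, the wild-type change was above that of *Mov10l1*-/- for 2 of 17 piRNA pathway genes and 4 of 18 meiotic genes. It was also above for 7 of 25 spermatocyte and spermatid genes and 2 of 12 histone genes. The shares were 2.07% of all genes and 3.54% of those with a symbol. Nearly all list members have a symbol because the study lists them as differing between genotypes. These list counts are therefore no independent test of genotype.

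Of the genes below, *Cpeb1*, a regulator of mRNA polyadenylation in germ cells, had wild-type levels of 22.8 and 33.4 and then 71.8 and 74.4 CPM. In *Mov10l1*-/- it had 1.76 and 1.68 and then 42.9 and 36.0 CPM (difference -3.12 ± 0.37, edgeR adjusted p = 0.00192). Its call was lost without *Mov10l1*-/- replicate 1 of 13 d.p.p. So it was without either *Mov10l1*-/- library or wild-type replicate 1 of 21 d.p.p. The differences in these fits ran from -3.35 to -3.10. *Cacng4*, a calcium channel subunit, had wild-type levels of 6.08 and 5.64 and then 5.19 and 4.71 CPM, and 0.378 and 0.337 and then 2.23 and 2.59 CPM in *Mov10l1*-/- (-3.01 ± 0.53, adjusted p = 0.00932). This call was lost with the litter code as a block (adjusted p = 0.0620), with the replicate block (0.0117) and with RLE size factors (0.0102). *Col9a2*, called lower in the wild type, had wild-type levels of 32.5 and 40.4 CPM and then 4.58 and 7.91 CPM, and in *Mov10l1*-/- it had 42.4 and 30.7 CPM and then 32.3 and 34.6 CPM (-2.39 ± 0.42, adjusted p = 0.00963). With the litter code as a block the *Col9a2* difference was -2.03 and not called (adjusted p = 0.0458), nor was it with RLE size factors (0.0105). *Bcam*, by comparison, had 110 and 143 CPM and then 21.9 and 25.5 CPM in *Mov10l1*-/-, and its difference of -0.16 ± 0.50 was not called (adjusted p = 0.878). The number of genes above depended on the libraries, and was 1 without either *Mov10l1*-/- library of 21 d.p.p., 63 without *Mov10l1*-/- replicate 1 of 13 d.p.p. and 62 without wild-type replicate 1 of 21 d.p.p.

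**Figure D5:**
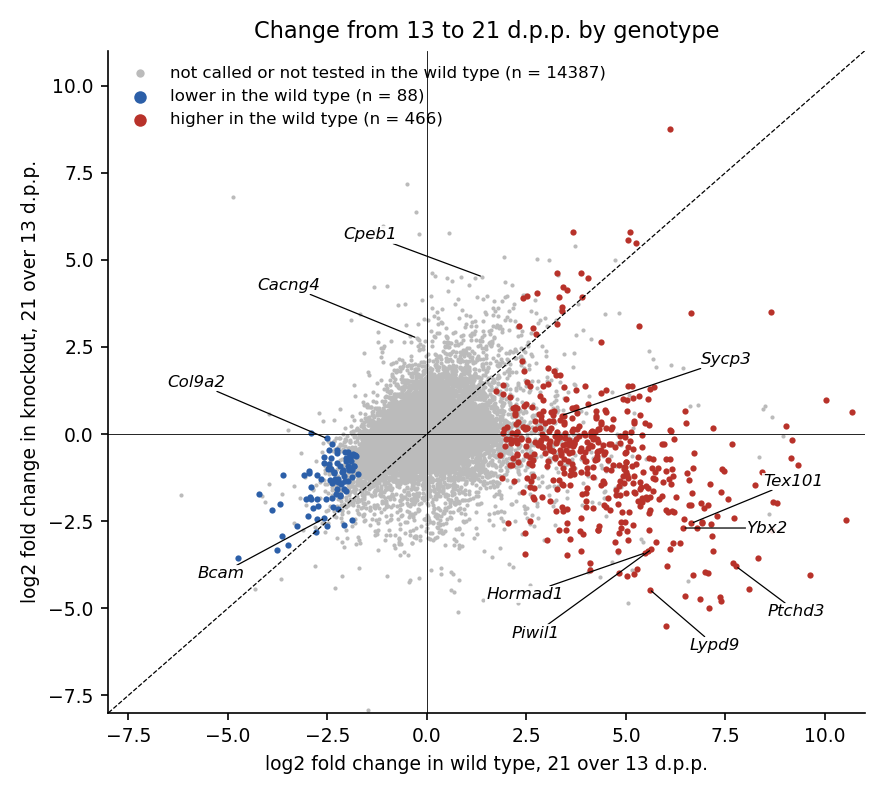
Each of 14941 genes is placed by its log2 fold change from 13 to 21 d.p.p. in the wild type (horizontal) and in *Mov10l1*-/- (vertical), with a dashed line where both are equal. Red points are the 466 genes that rose in the wild type and blue points the 88 that fell. Most red points lie near or below 0 on the vertical axis, with medians of 4.18 and -0.58, and the blue points lie mostly between the dashed line and 0, with medians of -2.34 and -1.22.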

How the data were processed

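RNA-seq of whole testis was analysed from 4 wild-type libraries, and 4 of *Mov10l1*-/- for 1 comparison. The authors depleted rRNA, made stranded libraries, sequenced paired 150-nucleotide reads, aligned them to MesAur1.0 with STAR 2.7.3a (up to 20 alignments per read) and counted them over Ensembl release 99 exons with featureCounts 2.0.0. The values deposited are estimated counts, with no normalization by the authors. Reads that map to or overlap several genes were counted as fractions (9.695% of values), so near-identical and overlapping genes are uncertain. *Tex101* and *Piwil3* were counted from RefSeq models, and their positions were not used here. Libraries were depleted with either of 2 kits, and which library received which is not given in the sources used here.

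Counts were rounded. edgeR 4.0.16 in R 4.3.3 (TMM, filterByExpr, quasi-likelihood test) was fitted to the 4 wild-type libraries, with p values adjusted over all genes tested by the Benjamini-Hochberg method. The threshold was 0.01. CPM uses TMM-scaled library sizes. The genotype difference is the interaction of genotype and age over 8 libraries. Figures used Python 3.11.15 and matplotlib 3.10.9. The test was tried on simulated counts. Alternatives were DESeq2 1.42.0, RLE size factors, other filters, all 12 paired-end or all 6 wild-type paired-end libraries, the replicate number or litter as a block, thinning to the smallest library, an adjusted p of 0.05 and leaving out each library. A fit without the most counted genes was added after seeing the data.

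Symbols and positions come from the study's tables of listed genes. The RefSeq annotation at hand belongs to another assembly and matched no identifier. Named genes were the 12 of largest change in each direction (with a symbol, at least 1 CPM at one age and no overlap of libraries), fixed genes (*Mov10l1*, the 4 *Piwil* genes, *Ddx4*, *Sycp1*, *Sycp3*, *Hormad1*, *Zbtb16*, *Kit*, *Tex101*), up to 4 of the most abundant members of each of 16 lists, 2 genes without a symbol in each direction and 3 in each direction of the genotype difference. Of lists without a call, 2 members are named, and other called list members were added after their values were seen. The genes and lists were chosen with earlier results of these data known. Lists are described by counts and medians, with no test of the list.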

Additional observations from a re-analysis of the deposited data

Results flagged for a closer look

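The change from 13 to 21 d.p.p. differed between wild type and *Mov10l1*-/- by the edgeR test of the difference over 8 libraries for 309 genes in which the wild-type change was above and 5 in which it was below. Among the genes named above, the wild-type change exceeded that of *Mov10l1*-/-, on the log2 scale, by 11.57 for *Ptchd3*, 10.06 for *Lypd9*, 9.21 for *Tex101*, 9.13 for *Ybx2*, 8.95 for *Piwil1*, 8.90 for *Hormad1*, 7.22 for *Ddx4*, 7.12 for *Brdt*, 6.31 for *Rpgrip1*, 6.28 for *H2bc1*, 5.80 for *Ptpdc1* and 5.66 for *Sycp1*. For the list members *Adad1*, *Pbk* and *Spata22* the differences were 4.60, 4.58 and 3.65. ENSMAUG00000019378 gave 13.01, a value that depends on the small count edgeR adds, because its wild-type libraries of 13 d.p.p. had no count. The wild-type change was below that of *Mov10l1*-/- by -3.12 for *Cpeb1*, -3.01 for *Cacng4* and -2.39 for *Col9a2*. The genotypes differ in germ cell content, and whether these differences lie in cell numbers or in expression per cell was not tested. With 1 *Mov10l1*-/- library of 21 d.p.p. left out, 1 gene was called above and 0 below, whichever of the 2 it was.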

How the results depend on the processing

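The number of genes called higher (466) and lower (88) kept its order, with more genes higher than lower, under every alternative, and all called genes that are named kept their direction. RLE size factors, thinning to the smallest library and leaving out the 14 most counted genes kept both counts within 1.5 times. Without a filter on low counts 1047 and 533 genes were called, with at least 10 counts in every library 161 and 39, by DESeq2 769 and 370, with all 12 paired-end libraries 1060 and 1047, and at an adjusted p below 0.05 972 and 593. With the 6 wild-type paired-end libraries 201 were lower. Leaving out 1 library gave 99 to 625 higher and 19 to 508 lower. Of the 50 called genes that are named, 18 kept their call without replicate 1 of 13 d.p.p., 36 without replicate 1 of 21 d.p.p. and 45 or more under the other alternatives, except that 33 of 39 testable ones did with at least 10 counts in every library.

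Replicate numbers do not pair the ages: deviations of same-numbered libraries correlated at -0.068. The replicate block gave 889 and 363 calls, and no named gene lost its call. For the difference between genotypes (309 above, 5 below), no filter gave 871 and 456 genes, DESeq2 819 and 149, the replicate block 419 and 9, and the litter block 335 and 7. With RLE size factors 2 were below. Leaving out 1 of the 8 libraries gave 1 to 364 above and 0 to 68 below.

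Signs turned, on the log2 scale, only for genes that were not called. *Kit* gave -0.043 with 12 libraries, -0.06 after thinning and -0.33 to 0.52 when 1 library was left out. *Ptgds* gave -0.027 by DESeq2, -0.12 with 12 and -0.0066 with 6 libraries, -0.0057 after thinning, -0.0102 without the most counted genes and -0.32 to 0.39 when 1 library was left out. *H1f1* gave 0.075 with the replicate block and -0.56 to 0.68 when 1 library was left out. Leaving out 1 library gave *Zbtb16* -1.29 to 0.15, *Sohlh1* -1.07 to 0.78, *Kitl* -1.35 to 0.52, *Nckap1l* -0.14 to 0.57, *Mest* -0.21 to 0.91, *ND6* -0.95 to 0.068, *Atp5j2* -0.21 to 0.60 and *Calr* -0.14 to 0.73. The cause of these shifts was not tested. Libraries of 3550217 to 20656904 counts and 2 animals per age limit what can be called, above all for genes under 1 CPM.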
